A study of Mus musculus with 34 samples.

Results

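The genes described here are 10 regulators of trunk and limb mesenchyme, Shox2, Prrx1, Prrx2, Twist1, Twist2, Mab21l1, Mab21l2, Pitx1, Emx2 and En1, followed through every group of sorted mouse stromal cells. They were taken by name from a list and are 10 of the 51826 gene identifiers in the count files; each of the 10 symbols matched 1 identifier and passed the filter on low counts, as did 25705 genes in all. RNA was sequenced from 34 libraries of cells that had been digested out of tissue and sorted, straight into TRIZOL, for absence of CD45, CD31 and Epcam and presence of PDPN. Cells positive for PDGFRA were called fibroblasts and cells negative for it mesothelial cells, the lining cells of the body cavities. The study set tissue environments against each other.

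Mesothelial cells came from 3 visceral fat depots, the omentum, the mesentery and the epididymal fat, with 3 libraries each. Fibroblasts came from the same 3 depots, from inguinal and brown adipose tissue (both labelled as the subcutaneous fat region), from bone and from the lymph node (labelled sLN) with 3 libraries each, and from pancreas and spleen with 2 libraries each. All 34 libraries carry the label GFPneg. The labels used here give no genotype, strain, age, sex or treatment, and do not say whether libraries of 1 group came from separate mice, so p-values measure the spread between these libraries, which may be technical. Libraries held between 28651435 and 42335589 counts.

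These genes act in the embryo to tell mesenchyme where it is and to keep it mesenchymal. Homeobox factors such as Prrx1 and Shox2 are expressed in limb buds and body wall and shape bone and connective tissue, while the Twist proteins are basic helix-loop-helix factors that hold cells in a mesenchymal state. Connective tissue cells of the adult body often retain such positional genes, and fat depots of different embryonic origin are known to differ in them. Mesothelium arises from lateral plate mesoderm and covers the visceral depots.

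Most of the 10 genes were lower in the fibroblasts of visceral fat than in those of subcutaneous fat, and several were highest in bone. Mab21l1 and En1 had their highest levels in inguinal and brown adipose fibroblasts, and Shox2 in bone, inguinal, lymph node and brown adipose fibroblasts, in that order. Prrx1 was read in all fibroblasts and was far lower in mesothelial cells. Mab21l2 was abundant in bone fibroblasts and in both cell types of the mesentery, and was at or near 0 in the other fat depots. Emx2 was highest in epididymal mesothelial cells and inguinal fibroblasts, and Pitx1 was low outside bone.

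**Figure D1:**
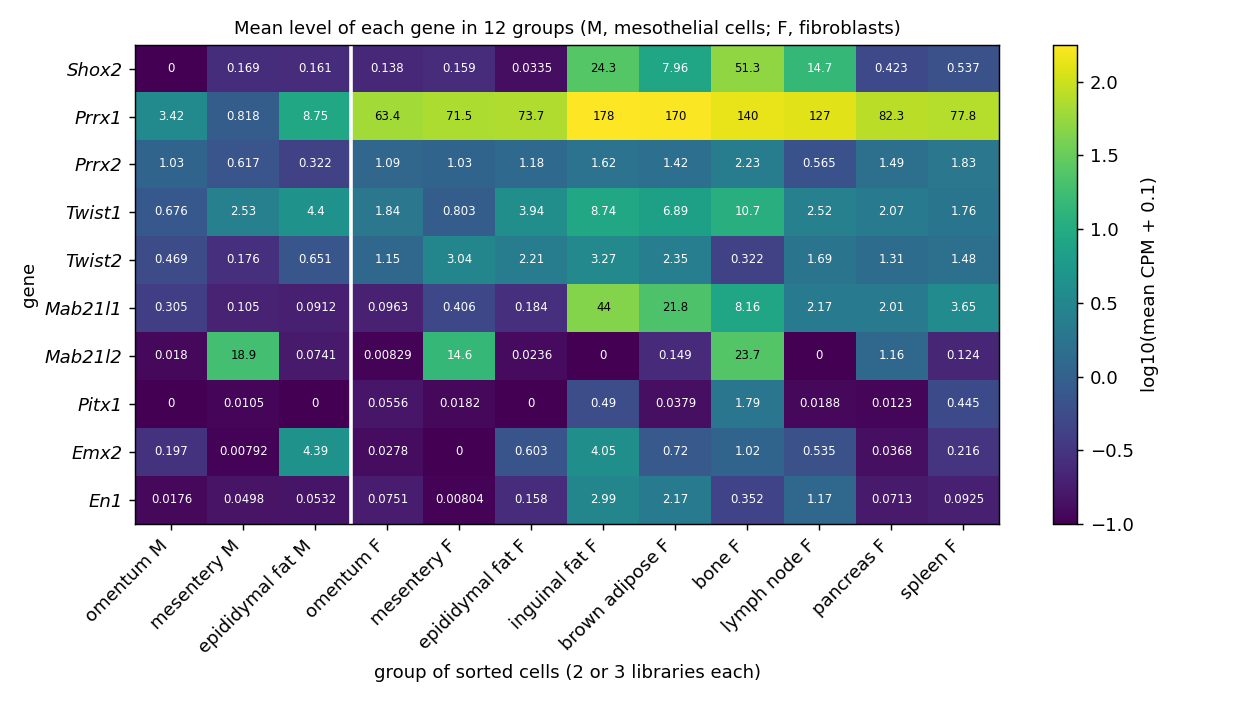
Mean level of the 10 genes (rows) in the 12 groups (columns, mesothelial cells left of the white line), in CPM (counts per 1000000 counts of the library). Colour is log10 of the mean CPM plus 0.1 and the printed numbers are the means over 2 or 3 libraries. Prrx1 was the gene with the highest CPM in each of the 9 fibroblast groups, and Mab21l2 in mesentery mesothelial cells.

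A gene's own level is given as CPM, counts per 1000000 counts of its library after scaling by the trimmed mean of M values (TMM). A difference is a log2 ratio from edgeR's quasi-likelihood test, with its standard error, and was called when the Benjamini-Hochberg adjusted p over all 25705 genes was below 0.05 and the log2 difference was at least 1 in size. In such bulk samples, fewer cells of a type and less RNA per cell cannot be told apart.

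The 10 genes hold 3 pairs of close relatives, and the members of each pair differed in where they were read, so stretches of their coding sequences are shown to let the reader see how far reads could be told apart. The 90-base windows are the most alike of each pair. They are from GENCODE M21 transcripts on GRCm38, written 5′ to 3′ on the gene's own strand, and capitals mark the bases that differ within the pair.
Prrx1: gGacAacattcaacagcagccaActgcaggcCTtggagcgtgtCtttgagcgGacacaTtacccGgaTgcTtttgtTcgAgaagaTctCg
Prrx2: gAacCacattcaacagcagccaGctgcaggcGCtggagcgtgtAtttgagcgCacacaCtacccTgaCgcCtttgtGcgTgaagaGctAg
Twist1: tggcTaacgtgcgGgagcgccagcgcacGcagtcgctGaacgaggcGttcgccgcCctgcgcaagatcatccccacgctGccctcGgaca
Twist2: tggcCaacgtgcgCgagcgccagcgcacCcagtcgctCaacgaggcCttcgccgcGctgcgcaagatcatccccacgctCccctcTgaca
Mab21l1: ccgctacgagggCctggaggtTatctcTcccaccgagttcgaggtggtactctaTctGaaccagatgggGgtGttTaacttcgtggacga
Mab21l2: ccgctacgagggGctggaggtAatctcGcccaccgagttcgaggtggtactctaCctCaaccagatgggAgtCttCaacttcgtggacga
The Prrx1 window is coding bases 293 to 382 and the Prrx2 window 305 to 394, and 15 bases differ. The Twist1 window is coding bases 347 to 436 and the Twist2 window 209 to 298, and 8 bases differ. The Mab21l1 and Mab21l2 windows are both coding bases 183 to 272, and 8 bases differ. Over the aligned coding sequence, identity was 68.7% for the Prrx pair, 84.2% for the Twist pair and 80.6% for the Mab21l pair. The longest identical runs were 19, 23 and 26 bases, and no pair shared a 31-base word in its transcripts. How ambiguous reads were shared out by the authors' counting was not tested.

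Prrx1 (chr1:163245119-163313710, minus strand, GRCm38), a paired-related homeobox factor of limb bud and body wall mesenchyme, separated the 2 cell types in every depot. In omentum, Prrx1 was at 2.71, 2.73 and 4.82 CPM in mesothelial cells, against 64.3, 54.9 and 70.9 CPM in fibroblasts. In mesentery it was at 1.54, 0.348 and 0.563 CPM in mesothelial cells, against 81.3, 64.6 and 68.4 CPM in fibroblasts. In epididymal fat it was at 8.8, 8.04 and 9.42 CPM in mesothelial cells, against 69.9, 82.4 and 68.8 CPM in fibroblasts. All 9 mesothelial libraries lay below all 9 fibroblast libraries of these depots.

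The log2 difference of Prrx1, mesothelial cells minus fibroblasts, was -4.55 ± 0.15 as the mean of 3 depots (SE; edgeR adjusted p = 5.69e-22). It was -4.20 ± 0.26 in omentum, -6.37 ± 0.30 in mesentery and -3.07 ± 0.24 in epididymal fat. The size of the difference itself varied between depots (edgeR adjusted p = 2.48e-07). Among mesothelial cells alone, Prrx1 fell in the order epididymal fat, omentum, mesentery, and each step was called (log2 1.35, adjusted p = 0.000243, then log2 2.0, adjusted p = 1.88e-05). Pdgfra, the sort marker, differed by -5.88 ± 0.22 in omentum, -7.49 ± 0.24 in mesentery and -6.50 ± 0.23 in epididymal fat. In epididymal fat it averaged 11.7 CPM in mesothelial cells and 1070 CPM in fibroblasts. The Pdgfra difference also varied between depots (edgeR adjusted p = 0.000205) and, like that of Prrx1, was largest in mesentery. The 6 fibroblast markers together stood at 16000 to 23200 CPM in mesothelial libraries and 25900 to 34900 CPM in fibroblast libraries of these depots, and none of the 6 was at 0; their part in the Prrx1 level of mesothelial cells was not tested.

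**Figure D2:**
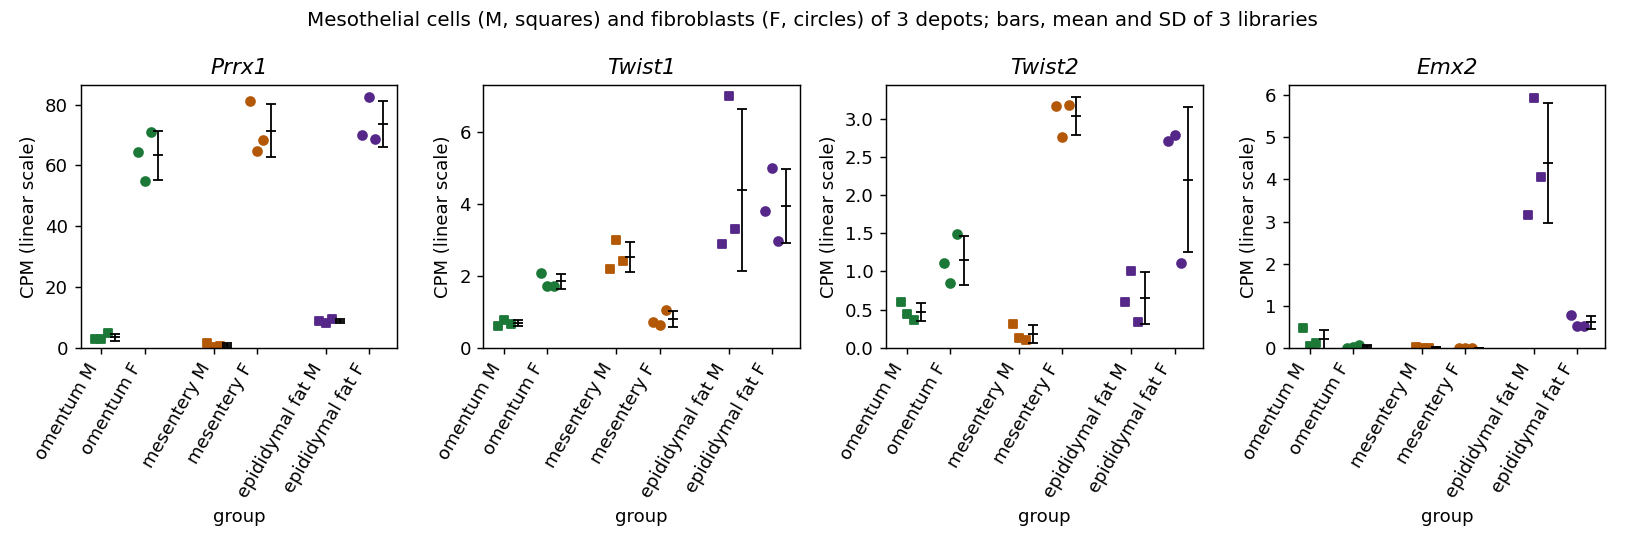
Level of 4 genes in CPM (linear scale) in mesothelial cells (squares, left of each pair) and fibroblasts (circles) of 3 visceral depots, 1 symbol per library, with mean and SD. Prrx1 and Twist2 were lower in mesothelial cells of each depot, Twist1 was lower in those of the omentum and higher in those of the mesentery, and Emx2 was higher in those of the epididymal fat.

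Twist1 (chr12:33957671-33959829, plus strand) and Twist2 (chr1:91801461-91848028, plus strand) are basic helix-loop-helix factors of mesoderm, and both repress maturation of mesenchymal lineages. Twist2 was at 0.599, 0.441 and 0.369 CPM in omentum mesothelial cells, against 1.11, 0.845 and 1.49 CPM in omentum fibroblasts. It was at 0.309, 0.126 and 0.0938 CPM in mesentery mesothelial cells, against 3.18, 2.76 and 3.19 CPM in mesentery fibroblasts. It was at 0.598, 1.01 and 0.342 CPM in epididymal mesothelial cells, against 2.72, 2.79 and 1.11 CPM in epididymal fibroblasts. The libraries of the 2 cell types did not overlap in any of the 3 depots. The log2 difference of Twist2 was -2.37 ± 0.27 as the mean of 3 depots (edgeR adjusted p = 6.95e-09), -1.30 ± 0.47 in omentum, -4.00 ± 0.50 in mesentery and -1.81 ± 0.42 in epididymal fat. Gm29100, annotated opposite Twist2 with 1477 exon bases in common, differed by -1.52 ± 0.49 (edgeR adjusted p = 0.0118), and Gm29101, inside a Twist2 intron, by -4.00 ± 0.68 (edgeR adjusted p = 5.45e-06). The omentum call of Twist2 (adjusted p = 0.0436) was lost when any of mesothelial libraries 1, 2 or 3 or fibroblast libraries 1 or 3 was left out (adjusted p between 0.0587 and 0.15). It was also lost without the filter on low counts (adjusted p = 0.0617), in a fit of only the groups compared (adjusted p = 0.0525) and with the replicate block (adjusted p = 0.0512).

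Twist1 took a different course. It was at 0.599, 0.771 and 0.658 CPM in omentum mesothelial cells, against 2.08, 1.72 and 1.73 CPM in omentum fibroblasts. It was at 2.19, 3.0 and 2.41 CPM in mesentery mesothelial cells, against 0.724, 0.624 and 1.06 CPM in mesentery fibroblasts. In both depots the cell types did not overlap, but Twist1 was lower in mesothelial cells of the omentum (-1.43 ± 0.44, edgeR adjusted p = 0.0168) and higher in those of the mesentery (1.65 ± 0.42, edgeR adjusted p = 0.00302). In epididymal fat it was at 2.90, 7.0 and 3.31 CPM in mesothelial cells and 3.82, 5.02 and 2.97 CPM in fibroblasts, which overlapped, and the difference of 0.15 ± 0.34 was not called (edgeR adjusted p = 0.78). The difference between depots was itself called for Twist1 (edgeR adjusted p = 0.00245) and Twist2 (edgeR adjusted p = 0.0262). The omentum call of Twist1 was lost without omentum mesothelial library 1 (adjusted p = 0.0638), and the depot difference of Twist2 without mesentery mesothelial library 2 or 3, omentum mesothelial library 1 or omentum fibroblast library 2 (adjusted p between 0.0514 and 0.0865). The 6 leukocyte markers summed to 841 to 1860 CPM in mesentery mesothelial libraries and 16.3 to 45.2 CPM in mesentery fibroblast libraries, and their part in the Twist1 level was not tested.

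Emx2 (chr19:59458372-59465357, plus strand), a homeobox factor of the urogenital system, the forebrain and the shoulder girdle, was the gene of the 10 that was called higher in epididymal mesothelial cells. It was at 3.16, 5.95 and 4.06 CPM in epididymal mesothelial cells, against 0.779, 0.505 and 0.525 CPM in epididymal fibroblasts, with no overlap. The log2 difference was 2.87 ± 0.43 (edgeR adjusted p = 2e-06). In the other 2 depots Emx2 was nearly absent from both cell types, with a mean of 0.197 CPM in omentum mesothelial cells, 0.0278 CPM in omentum fibroblasts, 0.00792 CPM in mesentery mesothelial cells and 0 counts in mesentery fibroblasts. A count of 0 over the 3 mesentery fibroblast libraries allows a level of up to 0.0278 CPM, taken as 3 counts over the group and covering counting error only. Against that limit, inguinal fibroblasts held at least 146-fold more Emx2.

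Emx2os, annotated on the opposite strand, shares 264 exon bases with Emx2, and the sources used here do not say whether counting used strand, so reads there cannot be assigned with certainty. Emx2os averaged 11.2 CPM in epididymal mesothelial cells and 6.04 CPM in epididymal fibroblasts, and its difference of 0.89 ± 0.35 was not called at this size (edgeR adjusted p = 0.0492). Among fibroblast groups Emx2os, like Emx2, was highest in inguinal fat (16.5 CPM) and lowest in mesentery (0.225 CPM). Against the mean of the other 8 fibroblast tissues, the 2 genes parted in bone and epididymal fat. In bone, where Emx2 was called higher, Emx2os was not called (-0.94 ± 0.37, edgeR adjusted p = 0.0562). In epididymal fibroblasts Emx2os was called higher (1.72 ± 0.26, edgeR adjusted p = 1.99e-05) and Emx2 was not called. Prrx2 (chr2:30834972-30881251, plus strand), the paralog of Prrx1, was low everywhere, with group means between 0.322 CPM in epididymal mesothelial cells and 2.23 CPM in bone fibroblasts. It was called lower in mesothelial cells of epididymal fat (-2.0 ± 0.53, edgeR adjusted p = 0.00395), with 0.114, 0.76 and 0.0912 CPM in mesothelial cells and 0.991, 1.75 and 0.803 CPM in fibroblasts. That call was lost without epididymal fibroblast library 2 (-1.58, adjusted p = 0.0519).

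Of the 10 genes, 2 (Prrx1 and Twist2) were called lower and none higher in mesothelial cells as the mean of 3 depots, where 9.08% of all genes were called lower and 12.3% higher. In omentum 3 were called lower and none higher, where 8.79% of all genes were called lower and 8.1% higher. In mesentery 1 was called higher and 2 lower, where 10.8% of all genes were called higher and 7.53% lower. In epididymal fat 1 was called higher and 3 lower, where 16.6% of all genes were called higher and 8.16% lower. The mesothelial-fibroblast difference varied between depots for 3 of the 10, with 10.9% of all genes called. The 7 mesothelial markers summed to 9380 to 14000 CPM in the mesothelial libraries and at most 751 CPM in any fibroblast library.

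Mab21l2 (chr3:86545581-86548629, minus strand), a Mab21-family gene needed in the mouse for eye and ventral body wall formation, was high in both cell types of the mesentery. It was at 20.2, 18.2 and 18.2 CPM in mesentery mesothelial cells and 14.8, 13.4 and 15.7 CPM in mesentery fibroblasts. The log2 difference between these 2 groups was 0.37 ± 0.34 and was not called (edgeR adjusted p = 0.527). In omentum it was at 0.0, 0.0275 and 0.0263 CPM in mesothelial cells and 0.0, 0.0249 and 0.0 CPM in fibroblasts, and in epididymal fat at most 0.137 CPM in mesothelial cells and 0.0708 CPM in fibroblasts. The mesentery libraries of each cell type stood far above the other depots.

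Across the mesothelial cells of the 3 depots, 4 of the 10 genes were called, where 12.3% of all genes were. Their fitted ranges were log2 9.67 for Mab21l2, 8.38 for Emx2, 3.34 for Prrx1 and 2.68 for Twist1, with edgeR adjusted p of 8.96e-05 or less. The ranges of Mab21l2 and Emx2 depend on the small prior count of the fit. Omentum mesothelial cells held 2 Mab21l2 counts in all and mesentery mesothelial cells 1 Emx2 count. The highest depot was the mesentery for Mab21l2 and the epididymal fat for Emx2, Prrx1 and Twist1. The mesothelial cells of the omentum were lowest in Twist1, and those of the mesentery in Prrx1 and Emx2.

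The Mab21l2 gene lies inside Lrba, on the opposite strand, and 1097 exon bases overlap. Lrba averaged 12.9 CPM in mesentery mesothelial cells and 4.87 to 7.66 CPM in the other mesothelial groups, and 16.7 CPM in bone fibroblasts, so it was higher in some of the groups where Mab21l2 was. In mesentery fibroblasts, where Mab21l2 was also high, Lrba was not called against the mean of the other 8 fibroblast tissues (0.27 ± 0.22, edgeR adjusted p = 0.638). In inguinal and lymph node fibroblasts, where Mab21l2 had 0 counts, Lrba averaged 5.69 and 5.88 CPM. Whether reads crossed between the genes was not tested.

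Fibroblasts of visceral fat (omentum, mesentery and epididymal fat) were set against those of subcutaneous fat (inguinal and brown adipose). Of the 10, 7 were called lower in visceral fat and none higher, where 3.94% of all genes were called lower and 4.29% higher. The 7 were Shox2, Mab21l1, En1, Emx2, Pitx1, Twist1 and Prrx1. Mab21l2 (2.80 ± 2.02), Prrx2 (-0.46 ± 0.26) and Twist2 (-0.49 ± 0.23) were not called.

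**Figure D3:**
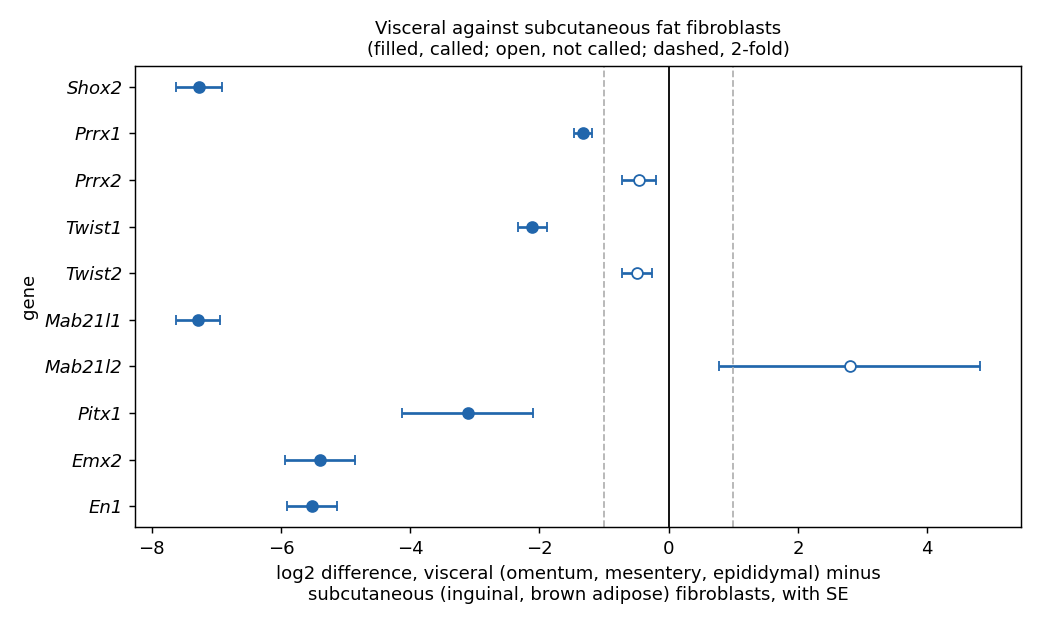
Log2 difference of each gene, visceral minus subcutaneous fat fibroblasts, with its standard error. Filled points were called. The 7 called genes lie between -7.28 and -1.33, and Mab21l2 carries the widest error.

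Shox2 (chr3:66971727-66981771, minus strand), a homeobox factor required for the proximal limb skeleton, was at 0.076, 0.0746 and 0.263 CPM in omentum fibroblasts, 0.0241, 0.119 and 0.334 CPM in mesentery fibroblasts and 0.0708, 0.0297 and 0.0 CPM in epididymal fibroblasts. It was at 25.0, 24 and 23.9 CPM in inguinal fibroblasts and 8.13, 7.95 and 7.81 CPM in brown adipose fibroblasts. The 9 visceral libraries lay far below the 6 subcutaneous ones. The log2 difference was -7.27 ± 0.36 (edgeR adjusted p = 1.88e-17).

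Mab21l1 (chr3:55782510-55785001, plus strand), the paralog of Mab21l2 and a gene of eye and genital development in the mouse, was at 0.127, 0.0746 and 0.0878 CPM in omentum fibroblasts, 0.434, 0.208 and 0.576 CPM in mesentery fibroblasts and 0.106, 0.416 and 0.0309 CPM in epididymal fibroblasts. It was at 35.2, 53.9 and 42.8 CPM in inguinal fibroblasts and 20, 27.3 and 18.1 CPM in brown adipose fibroblasts. The groups did not overlap, and the log2 difference was -7.28 ± 0.34 (edgeR adjusted p = 6.87e-19). Within fat fibroblasts Mab21l1 was thus highest in the subcutaneous groups and Mab21l2 in the mesentery. Mab21l1 lies inside Nbea, on the opposite strand with 981 exon bases in common, and Nbea averaged 8.08 to 10.2 CPM in the 5 groups of fat fibroblasts.

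En1 (chr1:120602418-120607992, plus strand), a homeobox factor of ventral limb ectoderm and of dermal and trunk fibroblast lineages, was at 0.076, 0.149 and 0.0 CPM in omentum fibroblasts, 0.0241, 0.0 and 0.0 CPM in mesentery fibroblasts and 0.142, 0.178 and 0.154 CPM in epididymal fibroblasts. It was at 3.13, 1.96 and 3.88 CPM in inguinal fibroblasts and 1.84, 1.53 and 3.15 CPM in brown adipose fibroblasts. All visceral libraries lay below all subcutaneous ones, at a log2 difference of -5.52 ± 0.38 (edgeR adjusted p = 1.85e-15). Twist1 ranged from 0.624 to 5.02 CPM with a median of 1.73 CPM in visceral libraries and from 5.83 to 9.55 CPM with a median of 8.11 CPM in subcutaneous ones (-2.11 ± 0.23, edgeR adjusted p = 1.1e-08). Prrx1 ranged from 54.9 to 82.4 CPM, median 68.8 CPM, in visceral libraries and from 159 to 191 CPM, median 174 CPM, in subcutaneous ones (-1.33 ± 0.14, edgeR adjusted p = 5.58e-09). Neither gene's ranges overlapped.

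Emx2 and Pitx1 separated the regions less cleanly. Emx2 ran from 0 to 0.779 CPM in visceral fibroblasts and from 0.446 to 4.47 CPM in subcutaneous ones, which overlapped through epididymal and brown adipose libraries, and its fitted log2 difference was -5.40 ± 0.54 (edgeR adjusted p = 1.49e-09). Pitx1 (chr13:55825051-55836192, minus strand), the homeobox factor that gives the hindlimb its identity, ran from 0 to 0.117 CPM in visceral fibroblasts and from 0.0279 to 0.603 CPM in subcutaneous ones, also with overlap (-3.11 ± 1.01, edgeR adjusted p = 0.0321). Both fitted values depend on the small prior count of the fit, because mesentery fibroblasts had no Emx2 count and epididymal fibroblasts no Pitx1 count. The Pitx1 call was lost without any 1 of the 3 brown adipose libraries (adjusted p between 0.056 and 0.142), without the filter on low counts (adjusted p = 0.182) and in a fit of only the groups compared (adjusted p = 0.0549).

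Within subcutaneous fat, 3 of the 10 genes were called higher and none lower in inguinal than in brown adipose fibroblasts, where 0.268% of all genes were called higher and 0.436% lower. Emx2 was at 4.37, 3.33 and 4.47 CPM in inguinal fibroblasts, against 1.15, 0.566 and 0.446 CPM in brown adipose fibroblasts, without overlap (2.49 ± 0.41, edgeR adjusted p = 0.000482). Pitx1 was at 0.603, 0.467 and 0.401 CPM in inguinal fibroblasts, against 0.0575, 0.0283 and 0.0279 CPM in brown adipose fibroblasts, also without overlap (3.58 ± 0.77, edgeR adjusted p = 0.011). The third was Shox2, with the libraries given above (1.61 ± 0.35, edgeR adjusted p = 0.0112). The Shox2 and Pitx1 calls were lost without any 1 brown adipose library (adjusted p between 0.0577 and 0.074), and the Pitx1 call also without inguinal library 1 (adjusted p = 0.0582) and in a fit of only the groups compared (adjusted p = 0.0848). DESeq2 did not call Shox2 (adjusted p = 0.691) and gave no adjusted p for Pitx1. Mab21l1, with a difference of 1.01 ± 0.36 (edgeR adjusted p = 0.31), and En1, with 0.46 ± 0.33 (edgeR adjusted p = 0.872), were not called.

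**Figure D4:**
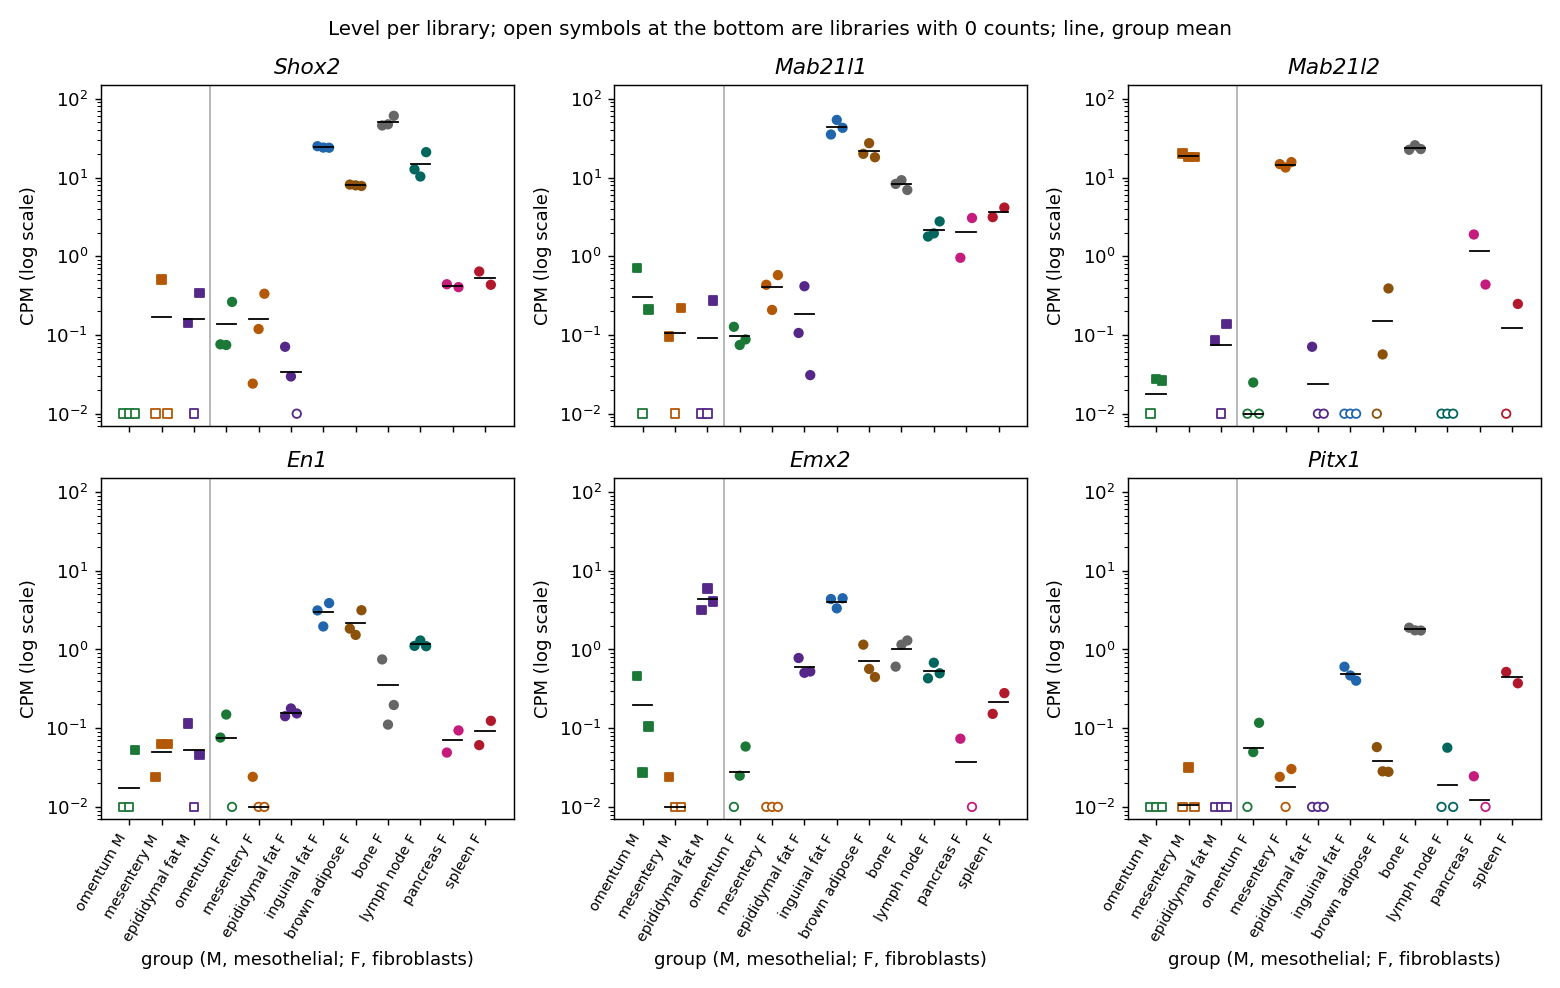
Level of 6 genes in every library, in CPM on a log scale, in mesothelial groups (squares, left of the grey line) and fibroblast groups (circles). Open symbols at 0.01 CPM are libraries with 0 counts, and lines are group means, drawn at 0.01 where lower. Mab21l1 and En1 stood highest in inguinal and brown adipose fibroblasts, Shox2 in bone, inguinal, lymph node and brown adipose fibroblasts, and Mab21l2 in bone fibroblasts and both mesentery groups.

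Bone fibroblasts carried the highest mean level of Shox2, Prrx2, Twist1, Mab21l2 and Pitx1 of the 12 groups. The step to the next group was called for Shox2 and Pitx1 only. It was not called for Prrx2 (spleen fibroblasts, log2 0.29, edgeR adjusted p = 0.703) or Twist1 (inguinal fibroblasts, log2 0.29, edgeR adjusted p = 0.61). Nor was it for Mab21l2 (mesentery mesothelial cells, log2 0.33, edgeR adjusted p = 0.531). Against the mean of the other 8 fibroblast tissues, 6 of the 10 genes were called higher in bone and 1 lower, where 12.8% of all genes were called higher and 6.65% lower. Shox2 was at 45.8, 47.4 and 60.8 CPM (5.81 ± 0.24), Mab21l2 at 22.5, 25.7 and 23.0 CPM (8.24 ± 0.32), and Pitx1 at 1.89, 1.75 and 1.74 CPM (5.30 ± 0.38), with edgeR adjusted p of 1.34e-13 or less. No other fibroblast library reached these levels for any of the 3 genes. Since inguinal and lymph node fibroblasts had 0 Mab21l2 counts, which allows up to 0.0302 and 0.0312 CPM, bone fibroblasts held at least 786-fold and 760-fold more. Pitx1 in bone was at least 56.3-fold above epididymal fibroblasts, which had 0 counts.

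Twist1 in bone was at 7.47, 11.7 and 13.0 CPM (1.96 ± 0.23, edgeR adjusted p = 1.25e-08), Mab21l1 at 8.29, 9.25 and 6.95 CPM (2.17 ± 0.29, edgeR adjusted p = 1.28e-07) and Emx2 at 0.605, 1.15 and 1.30 CPM (2.51 ± 0.49, edgeR adjusted p = 0.000103). Twist2 was the exception, at 0.32, 0.409 and 0.237 CPM, below all 22 libraries of the other fibroblast groups (-2.57 ± 0.43, edgeR adjusted p = 1.37e-05). The 2 Twist genes therefore ran in opposite directions in bone. Mab21l1, though called higher, had a lower mean in bone (8.16 CPM) than in inguinal (44 CPM) and brown adipose (21.8 CPM) fibroblasts. The bone libraries also held 13500 to 19400 CPM of the 5 bone and cartilage markers and 328 to 4720 CPM of the 4 skeletal muscle markers, while other groups had at most 1.81 and 23 CPM, and the part of such cells in these levels was not tested. Rsrc1, which shares 153 exon bases with Shox2 on the opposite strand, was also higher in bone (1.30 ± 0.14, edgeR adjusted p = 4.38e-09), at 55.1 CPM in bone and 35.0 CPM in inguinal fibroblasts. Lrba differed by 1.5 ± 0.20 in bone (edgeR adjusted p = 1.88e-07).

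**Figure D5:**
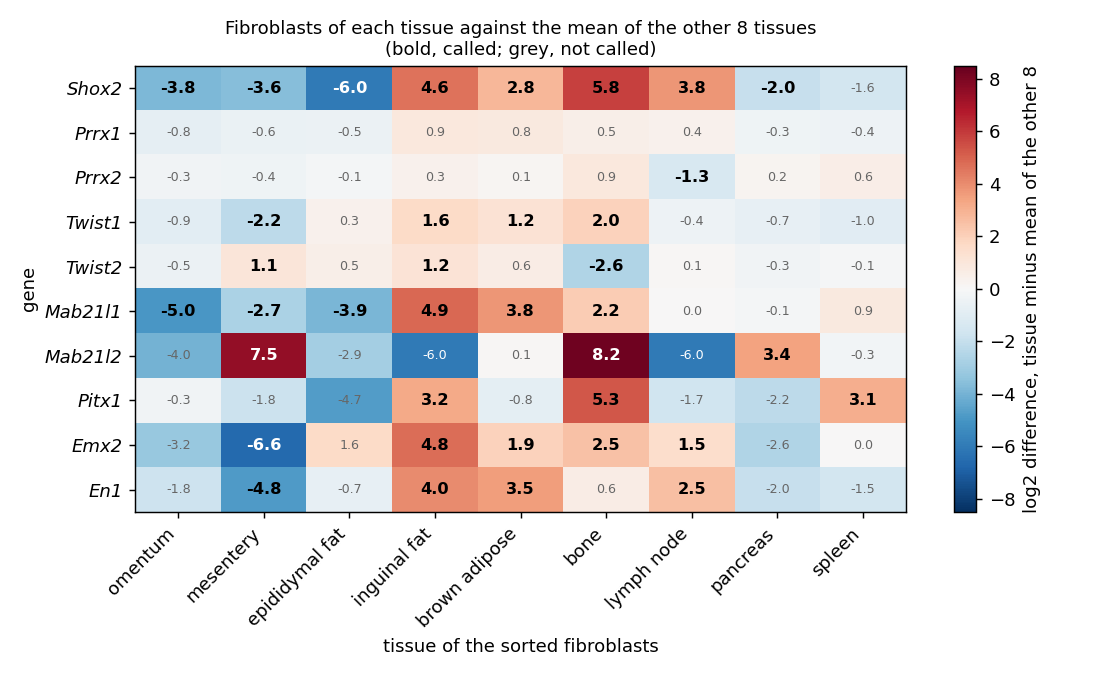
Log2 difference of the fibroblasts of each tissue (columns) from the mean of the fitted log2 levels of the other 8 tissues, for the 10 genes (rows). Called differences are bold. Inguinal fat and bone were called higher for 7 and 6 genes, and no gene was called higher in omentum or epididymal fat.

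Inguinal fibroblasts were called higher for 7 of the 10 genes and lower for none, where 3.35% of all genes were called higher and 2.96% lower. The 7 were Mab21l1 (4.90 ± 0.24), Emx2 (4.76 ± 0.33), Shox2 (4.60 ± 0.25), En1 (4.05 ± 0.31), Pitx1 (3.22 ± 0.51), Twist1 (1.63 ± 0.23) and Twist2 (1.17 ± 0.25), with edgeR adjusted p of 0.00142 or less. Brown adipose fibroblasts were called higher for 5 genes and lower for none, where 3.66% of all genes were called higher and 2.75% lower. These were Mab21l1 (3.76 ± 0.25), En1 (3.54 ± 0.32), Shox2 (2.79 ± 0.29), Emx2 (1.95 ± 0.50) and Twist1 (1.25 ± 0.24), and the Emx2 call was lost without brown adipose library 1 (1.45, adjusted p = 0.167). All 5 were also among the 7 of inguinal fibroblasts. Mean Shox2 in brown adipose (7.96 CPM) was nonetheless below that in bone (51.3 CPM), inguinal (24.3 CPM) and lymph node (14.7 CPM) fibroblasts. Mean Emx2 in brown adipose (0.72 CPM) was below that in inguinal (4.05 CPM) and bone (1.02 CPM) fibroblasts.

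Lymph node fibroblasts shared part of this set. Shox2 was at 12.7, 10.3 and 21.0 CPM (3.78 ± 0.27, edgeR adjusted p = 6.66e-14) and En1 at 1.11, 1.30 and 1.10 CPM (2.54 ± 0.38, edgeR adjusted p = 6.3e-07), both above every visceral, pancreas and spleen library. In all, 3 genes were called higher and 1 lower, where 9.32% of all genes were called higher and 7.12% lower. Emx2 (1.49 ± 0.54, edgeR adjusted p = 0.0373) lost its call without any of 7 single libraries, among them each lymph node library (adjusted p between 0.0509 and 0.166), and without the filter on low counts (adjusted p = 0.0696). Mean Emx2 in lymph node (0.535 CPM) was below that in inguinal (4.05 CPM), bone (1.02 CPM), brown adipose (0.72 CPM) and epididymal (0.603 CPM) fibroblasts. Prrx2 was lower (-1.33 ± 0.38, edgeR adjusted p = 0.00723) and lost its call without lymph node library 3 (-1.18, adjusted p = 0.0595). The 4 mural cell markers summed to 729 to 841 CPM in these libraries and at most 174 CPM in other groups, and their part was not tested.

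Mesentery fibroblasts were called higher for 2 genes, Mab21l2 and Twist2, and lower for 5, where 2.19% of all genes were called higher and 1.31% lower. Mab21l2 differed by 7.45 ± 0.34 (edgeR adjusted p = 2.51e-16). Twist2 differed by 1.06 ± 0.25 (edgeR adjusted p = 0.00705), a call that was lost without mesentery library 1 (1.02, adjusted p = 0.0694), while Twist1 was lower by -2.24 ± 0.35 (edgeR adjusted p = 3.26e-05). Mesentery fibroblasts thus had more Twist2 than Twist1 in each library on the per-length scale too, with 1.0, 0.87 and 1.0 RPKM (CPM per kilobase of exon) of Twist2 and 0.445, 0.383 and 0.652 RPKM of Twist1. Emx2 (-6.61 ± 1.53), En1 (-4.79 ± 1.04), Shox2 (-3.63 ± 0.75) and Mab21l1 (-2.68 ± 0.49) were also lower, with edgeR adjusted p of 0.00443 or less. The Shox2 call was lost without epididymal fibroblast library 1 (adjusted p = 0.0881) and the Emx2 call without pancreas library 1 (adjusted p = 1).

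In omentum fibroblasts Shox2 (-3.82 ± 0.76) and Mab21l1 (-4.97 ± 0.62) were the 2 genes called, both lower, where 2.38% of all genes were called lower and 7.65% higher. In epididymal fibroblasts the same 2 genes were called lower, Shox2 by -6.00 ± 0.79 and Mab21l1 by -3.90 ± 0.59, where 1.93% of all genes were called lower and 2.5% higher. The largest edgeR adjusted p of these 4 was 0.000273. Mesothelial markers were higher in omentum fibroblasts (439 to 751 CPM) than in the other fibroblast groups (at most 145 CPM).

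Pancreas and spleen fibroblasts showed few called differences. In pancreas, with 2 libraries, Mab21l2 was at 1.89 and 0.437 CPM (3.41 ± 0.63, edgeR adjusted p = 2e-04) and Shox2 at 0.441 and 0.405 CPM (-1.96 ± 0.63, edgeR adjusted p = 0.0291), so that 1 gene was called higher and 1 lower, where 8.65% and 2.31% of all genes were. The Mab21l2 call was lost without pancreas library 1 (1.95, adjusted p = 0.274), and the Shox2 call without either pancreas library or without epididymal fibroblast library 1 or 2 (adjusted p between 0.0626 and 0.186) or with DESeq2 (adjusted p = 0.0935). Mean Mab21l2 in pancreas (1.16 CPM) was far below that in bone (23.7 CPM) and mesentery (14.6 CPM) fibroblasts. Acinar markers of the exocrine pancreas summed to 20700 and 76400 CPM in the 2 pancreas libraries. In spleen, Pitx1 was at 0.518 and 0.372 CPM (3.06 ± 0.60, edgeR adjusted p = 0.000909) and was the 1 gene called, higher, where 3.47% of all genes were called higher and 0.416% lower. It lost its call without spleen library 1 (2.80, adjusted p = 0.0827). Mab21l1 in spleen, at 3.14 and 4.15 CPM, lay above all visceral fat libraries.

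When the 9 fibroblast tissues were tested together, all 10 genes were called, where 44% of all genes were. The fitted range between the lowest and highest tissue was smallest for Prrx1 (log2 1.49, edgeR adjusted p = 1.69e-07) and Prrx2 (log2 1.96, edgeR adjusted p = 0.0248). It was log2 3.32 for Twist2, 3.74 for Twist1, 7.86 for En1, 8.78 for Mab21l1 and 10.50 for Shox2. For Pitx1, Emx2 and Mab21l2 the range depends on the prior count, because a tissue had 0 counts. So do the differences given above of single tissues from the other 8 for these genes. The En1 range and its mesentery difference depend on the prior count in part, because mesentery fibroblasts held 1 En1 count in all. The Prrx2 call was lost without bone library 1 or lymph node library 2 or 3 (adjusted p between 0.0619 and 0.0764).

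The order of levels over all 12 groups had few clean steps. For Shox2 the steps from bone (51.3 CPM) to inguinal fat (24.3 CPM) and from brown adipose (7.96 CPM) to spleen (0.537 CPM) were called, while inguinal fat, lymph node (14.7 CPM) and brown adipose fibroblasts had no called step between neighbours. For Mab21l1 the steps from brown adipose (21.8 CPM) to bone (8.16 CPM) and from pancreas (2.01 CPM) to mesentery fibroblasts (0.406 CPM) were called. For En1 the only called step between neighbours was from lymph node (1.17 CPM) to bone fibroblasts (0.352 CPM), with inguinal (2.99 CPM) and brown adipose (2.17 CPM) above. For Emx2 epididymal mesothelial cells (4.39 CPM) and inguinal fibroblasts (4.05 CPM) had no called difference, and both stood above bone fibroblasts (1.02 CPM). For Prrx1 no called step lay among the 9 fibroblast groups, which ran from 178 CPM in inguinal fat to 63.4 CPM in omentum. No step between neighbours was called for Prrx2, Twist1 or Twist2.

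Per length of exon, different genes of the 10 led in different cells. In bone fibroblasts Shox2 was at 13.8 to 18.4 RPKM, Prrx1 at 10.9 to 14.3 RPKM and Mab21l2 at 7.37 to 8.42 RPKM. In inguinal fibroblasts Mab21l1 at 14.1 to 21.6 RPKM and Prrx1 at 14.4 to 17.2 RPKM overlapped, with Shox2 at 7.23 to 7.56 RPKM and Twist1 at 4.64 to 5.87 RPKM. In mesentery mesothelial cells Mab21l2 led at 5.97 to 6.64 RPKM, followed by Twist1 at 1.34 to 1.85 RPKM, and the other 8 genes were at most 0.4 RPKM. The length used was the union of annotated exons, which for Prrx1 (11066 bases) exceeds that of its paralog Prrx2 (1961 bases) and lowers its RPKM.

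Other limb and trunk factors were counted in the same comparisons, from a list of 40 of which 35 were tested. In visceral against subcutaneous fat fibroblasts 4 were called higher and 15 lower, where 4.29% of all genes were called higher and 3.94% lower, among them Tbx15 (-6.92), Meis1 (2.03) and Tbx5 (-3.34). Their median was -0.50, beside -0.10 over all genes. In bone 15 were called higher and 5 lower, where 12.8% and 6.65% of all genes were, with a median of 1.2 beside 0.03 over all genes, led by Dlx5 (7.58), Runx2 (6.68), Foxc1 (4.35) and Eya1 (4.57), which include regulators of bone formation. In mesothelial cells against fibroblasts, as the mean of 3 depots, 4 were called higher and 13 lower, where 12.3% and 9.08% of all genes were (median -0.34, beside 0.11 over all genes), led by Meox1 (-5.52), Osr2 (-4.11), Sox9 (-4.62) and Meox2 (-4.17).

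Of 10 tested partners and competitors of Twist, which pair with it or with its partners through their helix-loop-helix domain, 2 were called higher and 3 lower in mesothelial cells, where 12.3% of all genes were called higher and 9.08% lower. Tcf21 (-5.53), Id2 (-2.05) and Tcf4 (-1.06) were lower and Hand2 (2.69) was higher, and the list's median was -0.13 beside 0.11 over all genes. These values are means of 3 depots, and in omentum alone no gene of the list, Hand2 included, was called higher. In visceral against subcutaneous fibroblasts Tcf21 (8.02), Hand2 (6.32) and Id1 (1.76) were called higher and none lower, where 4.29% and 3.94% of all genes were. Hand2 had no count in brown adipose fibroblasts, so its fitted value depends on the prior count. Among the visceral depots Hand2 was low in epididymal fibroblasts and higher in those of omentum and mesentery. Of the 10 mesenchymal transition factors and their readouts, 2 were called higher and 7 lower in mesothelial cells, against the same 12.3% and 9.08% of all genes, with Fn1 (-4.12), Zeb2 (-2.65), Postn (-8.06) and Snai1 (-2.90) leading, and the median was -2.21. In visceral against subcutaneous fibroblasts 1 of these 10 was called, Cdh2, which was lower (-1.01), beside 3.94% of all genes.

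Of 12 signals that act upstream of limb and trunk factors 9 were tested. In mesothelial cells 1 was called higher and 4 lower, where 12.3% of all genes were called higher and 9.08% lower, led by Fgf10 (-4.90) and Bmp4 (2.84), the median being -0.84 beside 0.11 over all genes. In visceral against subcutaneous fibroblasts Fgf10 (-1.33) and Bmp2 (-1.59) were called lower and Grem1 (3.87) higher, where 3.94% of all genes were called lower and 4.29% higher. Fgf10 encodes the mesenchymal growth factor that starts limb outgrowth. It was lowest among fibroblasts in bone (2.49 CPM) and highest in inguinal fat (96.4 CPM).

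The genes whose group means ran most like each member over the 12 groups are given as a description, on log2 CPM. For Shox2 these were Tbx15 (Pearson r = 0.957), a T-box factor of trunk and limb, and Kbtbd11 (0.951). For Prrx1 they were Mmp2 (0.978), a matrix metalloproteinase, and Vash2 (0.975). For En1 they were Ntf3 (0.940) and Prkg2 (0.929), for Mab21l1 Lmx1a (0.904) and E4f1 (0.902), and for Mab21l2 Gpr37l1 (0.942) and Htr2b (0.861). Tbx15 averaged 0.321 to 0.657 CPM in visceral fat fibroblasts and 51.2 to 53.8 CPM in subcutaneous ones, and 42.3 CPM in lymph node and 40.8 CPM in bone fibroblasts. Over the 9 fibroblast groups Shox2 and Prrx1 correlated at r = 0.92, Prrx1 and En1 at 0.92 and Shox2 and Mab21l1 at 0.84, whereas Twist1 and Twist2 stood at -0.27 and Mab21l1 and Mab21l2 at -0.01. The points share libraries, scaling and depth, and n is 12 or 9 groups.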

How the data were processed

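Polyadenylated RNA from 34 libraries of sorted mouse cells in 12 groups was used. The authors deposited 1 whole-number count per gene and library, and the submitters' processing notes name Salmon and the build GRCm38; version, strandedness and the treatment of ambiguous reads are not given in the sources used here. Gene identifiers were named from the GENCODE M21 annotation, and 51633 of 51826 matched.

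Deposited counts were tested with edgeR 4.0.16 (limma 3.58.1, R 4.3.3): TMM scaling (factors 0.79 to 1.27), filterByExpr by group with a minimum count of 10, and a robust quasi-likelihood F-test on 1 fit of all 34 libraries with a coefficient per group. Tests over several groups used the range of group effects as their size. Means of groups were means of their fitted log2 levels. In all, 18 comparisons and the 66 pairs of groups were made, with adjustment over all genes within each. CPM used TMM-scaled totals and RPKM the union of exons. Cell markers were summed as CPM of unscaled totals. No label gives a batch. Replicates of a group differed by more than sampling noise (chi-square per degree of freedom 24.8 to 359).

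The members, the gene lists and the markers were chosen with earlier results of these data known. All 10 members were described in every group. Named besides were genes overlapping a member, up to 4 genes of each list by smallest adjusted p, and the 2 protein-coding genes with the highest Pearson r to a member over 12 group means of log2 CPM (prior count 2). 1 gene that this rule names is not reported here. Alternatives were DESeq2 1.42.0, its size factors, unscaled totals, no filter, a replicate block, only the groups compared and each library left out in turn. Leaving out libraries with at least 1000 CPM of acinar markers was added after seeing the data. The scripts were tested on simulated data. Coding sequences were aligned with Biopython 1.88.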

Additional observations from a re-analysis of the deposited data

Results flagged for a closer look

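The difference between mesothelial cells and fibroblasts was not the same in the 3 depots for 3 of the 10 genes, by edgeR's test of the depot-by-cell-type difference. Of all genes, 10.9% were called in that test. For Prrx1 the adjusted p was 2.48e-07, with log2 differences of -4.20 in omentum, -6.37 in mesentery and -3.07 in epididymal fat, and every mesothelial library lay below every fibroblast library of its depot. For Pdgfra, the sort marker and not among the 10, it was 0.000205. For Twist1 it was 0.00245, with -1.43 in omentum and 1.65 in mesentery. For Twist2 it was 0.0262, with -1.30, -4.00 and -1.81 in the same order of depots. The Twist2 call was lost when certain single libraries were left out (edgeR adjusted p between 0.0514 and 0.0865). Both Twist calls were lost without the libraries rich in acinar markers.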

How the results depend on the processing

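Of 83 log2 differences of the 10 genes given above, 63 kept direction and call under every alternative. The 1 difference that turned sign was Twist1 in epididymal fat, which was not called: it was 0 with only the groups compared, -0.34 without mesothelial replicate 2 and -0.02 without fibroblast replicate 3. The count of genes called was within 1.5 times of that reported under DESeq2 size factors, no filter and only the groups compared. With DESeq2 it was 5 in omentum (mesothelial cells against fibroblasts), 7 across mesothelial depots, 1 for inguinal against brown adipose, 4 for omentum fibroblasts and 0 for spleen fibroblasts, where, as for inguinal fat, Pitx1 got no adjusted p. Without the 7 libraries with at least 1000 CPM of acinar markers, chosen after seeing the data, fewer genes were called in omentum and for the difference between depots. Fewer libraries were tested, and the pancreas comparison could not be made. Tests over or against the other fibroblast tissues then ran without pancreas, as both its libraries were among the 7 left out. Without these libraries the calls of Twist1 and Twist2 in omentum (edgeR adjusted p = 0.225 and 0.344) and between depots (0.0738 and 0.0544) were lost, as were those of Prrx2 across fibroblast tissues (0.0502), Pitx1 in visceral against subcutaneous fat (0.0682), Mab21l1 and Emx2 in mesentery (0.0545 and 0.0867) and Emx2 in brown adipose (0.0783) and lymph node (0.191). Leaving out 1 library at a time gave 1 to 3 genes in omentum, 1 to 3 for inguinal against brown adipose, 2 to 4 for lymph node, 0 to 2 for pancreas and 0 to 1 for spleen. Whether equal replicate numbers pair the samples was not settled. Deviations from group means correlated at -0.28 to 0.37 between libraries of different groups with the same number. Between mesothelial cells and fibroblasts of a depot they ran from -0.25 to 0.23, with 0.03, 0.23 and 0.23 in epididymal fat. No correlations of unlike numbers were set beside these, so they cannot decide it. With the replicate block the counts stayed within 1.5 times, at 2 in omentum (Twist2 adjusted p = 0.0512) and 5 across mesothelial depots. For unscaled totals, 11 of 120 group levels moved by more than 1 SD. Genes at a few counts per library (Pitx1, En1 and Shox2 in visceral cells, and Emx2 in cells of omentum and mesentery) are limited by depth. Except where stated, the cause of a change was not tested.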

Other observations

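The 35 tested limb and trunk factors outside the 10 genes were also counted tissue by tissue in fibroblasts. In inguinal fat 11 were called higher and 1 lower than the mean of the other 8 tissues (edgeR), and in brown adipose 12 higher and 2 lower, where 3.35% and 3.66% of all genes were called higher and 2.96% and 2.75% lower. In mesentery 2 were called higher and 8 lower, where 2.19% of all genes were called higher and 1.31% lower, and those called included Tbx18 (-4.32), Meis1 (1.07) and Tbx15 (-3.69). Within subcutaneous fat 1 of the 35 was called, Zic1 (-2.32, edgeR adjusted p = 0.00126), which was lower in inguinal than in brown adipose fibroblasts, while Shox2, Emx2 and Pitx1 were called higher there. Zic1 is a zinc-finger factor of the dorsal trunk.

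In mesentery fibroblasts 3 of the 10 tested partners and competitors of Twist were called higher and none lower, where 2.19% of all genes were called higher and 1.31% lower, namely Hand2 (4.34), Tcf21 (4.58) and Hand1 (6.25), basic helix-loop-helix factors of lateral plate and visceral mesoderm. Hand2 had no count in brown adipose fibroblasts, so its fitted value depends on the prior count. Hand2 averaged 3.80 CPM in mesentery fibroblasts, 3.50 CPM in omentum, 5.91 CPM in pancreas and 3.11 CPM in spleen, and at most 0.136 CPM in bone, epididymal, inguinal and lymph node fibroblasts. In mesothelial cells it averaged 5.71 CPM in omentum, 7.85 CPM in mesentery and 6.31 CPM in epididymal fat.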
